A study of Mus musculus with 2 samples.

Results

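Genes of the WNT signal at the cell surface were examined in the hearts of newborn mice. They were chosen by name: every gene called Wnt, Fzd, Dkk, Sfrp or Rspo with a number, together with Frzb, Wif1, Lrp5, Lrp6, Ror1, Ror2, Axin1, Axin2, Nkd1 and Nkd2. This gave 51 members of 43346 Ensembl genes in the deposited tables, all annotated as protein coding. The rule uses no measured value, but it was set with earlier results of these data known. By role they were 19 WNT ligands, 10 frizzled receptors, 4 co-receptors, 10 secreted antagonists, 4 secreted agonists of the R-spondin family and 4 intracellular feedback genes. Total RNA came from whole hearts of 2 pups of the inbred strain B6NCrl at an age of 0 days, pup 2 (replicate 1) and pup 3 (replicate 2) of the same pregnancy. The labels list no genotype, transgene or agent, the sex was not collected, and both samples carry the same donor identifier although their descriptions name different pups. There was 1 group and no treated or later sample, so values were compared between genes within each heart and between the pups. With 2 pups no test of a difference between conditions exists, and a two-sided sign-flip test over them cannot go below a p of 0.5, so no p-value is given.

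WNT proteins are lipid-modified secreted ligands that bind frizzled receptors on the cell surface. With Lrp5 or Lrp6 as co-receptor the signal stops the breakdown of beta-catenin, which then works with TCF/LEF factors in the nucleus, whereas signals through Ror1 and Ror2 act on cell polarity and movement without beta-catenin. Secreted antagonists bind the ligands (Sfrp proteins, Frzb, Wif1) or the co-receptors (Dkk1, Dkk2 and Dkk4), and R-spondins keep the receptors at the membrane. Axin2 and Nkd1 are known as genes that the signal induces and that damp it in turn, and Axin1 and Nkd2 are grouped with them here. In the heart the pathway is known for its timed roles in the formation of precursors, the outflow tract, the valves and the epicardium.

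The libraries held 46151722 and 44707283 expected counts, of which the members took 0.0641% and 0.0672%. Levels are given in TPM, a count divided by gene length and scaled to a fixed total, for replicate 1 and then replicate 2. The heart label was met by its markers: all 6 cardiomyocyte genes were abundant, with Actc1 at 16412 and 13902 TPM, and all 6 markers each of fibroblasts, epicardium, endothelium and of smooth muscle and pericytes reached 1 TPM in both pups. Of 8 lung epithelium markers, Scgb3a2 read 2.96 and 563 TPM, Scgb1a1 0.97 and 74.3 TPM, and Sftpc 25.5 and 0.34 TPM. Summed over these 8 genes the level was 32.5 and 640 TPM, none was at 0, and the lung regulator Nkx2-1 stood at 0.04 TPM in both. The 5 erythroid markers summed to 6036 and 3916 TPM. These are bulk libraries, in which fewer cells of a type and less RNA per cell cannot be told apart.

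The most abundant ligands, Wnt11, Wnt5b and Wnt5a, are annotated with alternative starts, among which their TPM was divided as described with the transcripts. The sequences around the starts of Wnt11 and Wnt5b are shown for this reason. RefSeq promoter windows, which run from 250 bases before to 50 bases after a start site on GRCm38.p6, were matched by symbol for 34 of the 51 members, in 37 windows. Dkk3, Sfrp1, Fzd2, Fzd6, Lrp6, Axin1 and Wnt5a were among the members without a window and were not searched. Each window below is written 5′ to 3′ on the gene's own strand, and each of its start sites is also the start of an annotated transcript. Capitals mark matches on either strand to CTTTGA (the core of the TCF/LEF site), GGGCGG (the GC box) or TATAAA (the TATA box), 2 GC boxes that overlap forming a single run.
Wnt11, upstream start (chr7:98834862-98835161, plus strand): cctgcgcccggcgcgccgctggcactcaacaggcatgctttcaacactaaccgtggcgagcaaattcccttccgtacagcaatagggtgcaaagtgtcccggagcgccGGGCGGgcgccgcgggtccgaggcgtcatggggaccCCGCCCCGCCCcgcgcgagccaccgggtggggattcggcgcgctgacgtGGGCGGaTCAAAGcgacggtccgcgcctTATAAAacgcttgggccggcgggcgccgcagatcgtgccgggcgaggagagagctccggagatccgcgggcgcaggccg
Wnt11, downstream start (chr7:98838595-98838894, plus strand): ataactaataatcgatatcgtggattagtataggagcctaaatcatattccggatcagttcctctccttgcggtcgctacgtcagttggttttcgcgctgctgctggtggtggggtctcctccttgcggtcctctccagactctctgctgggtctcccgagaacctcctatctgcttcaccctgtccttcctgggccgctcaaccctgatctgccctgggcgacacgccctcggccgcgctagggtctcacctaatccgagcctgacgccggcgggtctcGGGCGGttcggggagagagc
Wnt5b, near start (chr6:119449337-119449636, minus strand): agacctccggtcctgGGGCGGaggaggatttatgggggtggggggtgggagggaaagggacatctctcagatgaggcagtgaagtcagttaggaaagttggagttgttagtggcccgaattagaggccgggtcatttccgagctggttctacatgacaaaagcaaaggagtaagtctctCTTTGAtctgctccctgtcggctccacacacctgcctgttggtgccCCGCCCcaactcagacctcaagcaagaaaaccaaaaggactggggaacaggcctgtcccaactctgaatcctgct
Wnt5b, middle start (chr6:119467162-119467461, minus strand): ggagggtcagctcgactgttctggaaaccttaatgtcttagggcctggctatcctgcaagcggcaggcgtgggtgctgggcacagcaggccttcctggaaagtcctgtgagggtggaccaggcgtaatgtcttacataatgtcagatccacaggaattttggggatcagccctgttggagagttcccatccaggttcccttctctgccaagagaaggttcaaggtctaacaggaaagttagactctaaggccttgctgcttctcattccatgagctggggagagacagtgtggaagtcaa
Wnt5b, far start (chr6:119544298-119544597, minus strand): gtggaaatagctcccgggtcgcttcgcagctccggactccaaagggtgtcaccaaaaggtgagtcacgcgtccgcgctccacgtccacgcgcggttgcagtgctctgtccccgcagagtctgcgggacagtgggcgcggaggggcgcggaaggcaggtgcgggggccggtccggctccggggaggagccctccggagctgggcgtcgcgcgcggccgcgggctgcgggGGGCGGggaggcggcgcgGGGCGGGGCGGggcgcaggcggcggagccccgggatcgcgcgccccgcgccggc

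The upstream Wnt11 window held all the motifs that were searched: CTTTGA at 50 bases before the start, GGGCGG 4 times and TATAAA at 29 bases before it. Its downstream window held only a GC box, 30 bases after the start, and had 23 CpG dinucleotides against 45 upstream. The far Wnt5b window was rich in CpG, with 47, and held 3 GC boxes, the middle window had 4 CpG and no match, and the near window had 7 CpG, CTTTGA at 71 bases before its start and 2 GC boxes. CTTTGA was found in 6 of the 37 windows of members (16.2%) and in 16.0% of all 32851 windows in the RefSeq table. Besides Wnt11 and Wnt5b the genes with it were Frzb, Ror1, Fzd1 and Dkk1. TATAAA was present in 13.5% of the members' windows against 13.6% of all, and GGGCGG in 73.0% against 35.7%. The members' windows held a median of 26 CpG against 7 over all windows. All windows came from 27025 genes, several for some genes, and were not restricted to protein coding genes as the members are. A share over protein coding genes alone was not computed. Among the members with a window, the first windows of the 17 detected ones had a median of 27 CpG and those of the 17 others 29. The windows of Axin2 and Nkd1, textbook targets of the signal, and of Nkd2 held no CTTTGA within these 300 bases. For Nkd1 the start to which all its reads were assigned had no window and was not searched. A match is a string of letters and was not tested as a binding site.

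Detection was set at 1 TPM in each of the pups, and 27 of the 51 members reached it. Over all Ensembl genes the share detected was 29.6%, and over the 21474 protein coding genes it was 54.5%. Of the rest, Fzd8 passed in replicate 2 alone, 23 stayed under 1 TPM in both hearts, and 4 of those (Wnt1, Wnt8a, Wnt10a and Rspo4) had no count in either. A count of 0 allows up to 3 counts, which came to between 0.0345 and 0.0547 TPM for these 4 genes. Such limits cover counting error only.

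**Figure D1:**
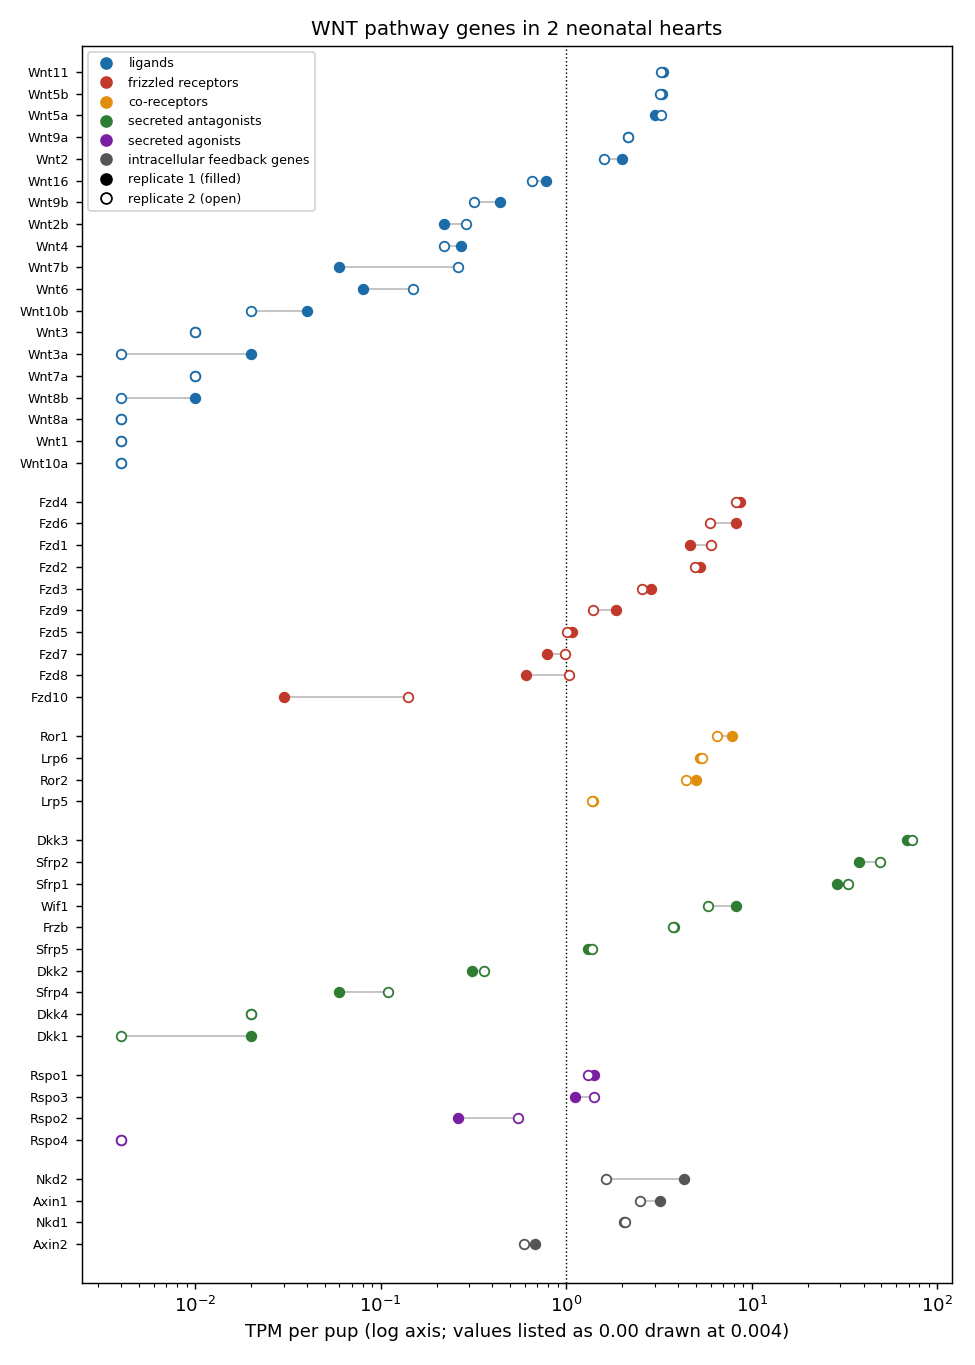
Level of each of the 51 members in TPM on a log axis, grouped and coloured by role, with replicate 1 as a filled and replicate 2 as an open circle joined by a grey line. The dotted line marks 1 TPM, values listed as 0 are drawn at the left edge, and Dkk3, Sfrp2 and Sfrp1 stand apart on the right above 28 TPM in both hearts.

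By role, the secreted antagonists made up most of the members' RNA, and the ligands little of it. The 10 antagonists summed to 149 and 167 TPM, 64.5% and 68.9% of the members' total. The 10 frizzled receptors summed to 34.0 and 32.3 TPM, the 4 co-receptors to 19.5 and 17.7 TPM, and the 19 ligands to 15.7 and 15.4 TPM. The feedback genes summed to 10.2 and 6.79 TPM and the R-spondins to 2.80 and 3.28 TPM. Antagonists thus exceeded ligands 9.51-fold and 10.8-fold, and frizzled receptors exceeded them 2.17-fold and 2.10-fold. Dkk3, Sfrp2 and Sfrp1 alone held 58.6% and 64.1% of the members' TPM. Dkk3 is counted here by its family name, although it does not bind the LRP co-receptors as Dkk1 does. Without it the other 9 antagonists summed to 80.3 and 93.8 TPM, which was 5.11 and 6.09 times the ligands.

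**Figure D2:**
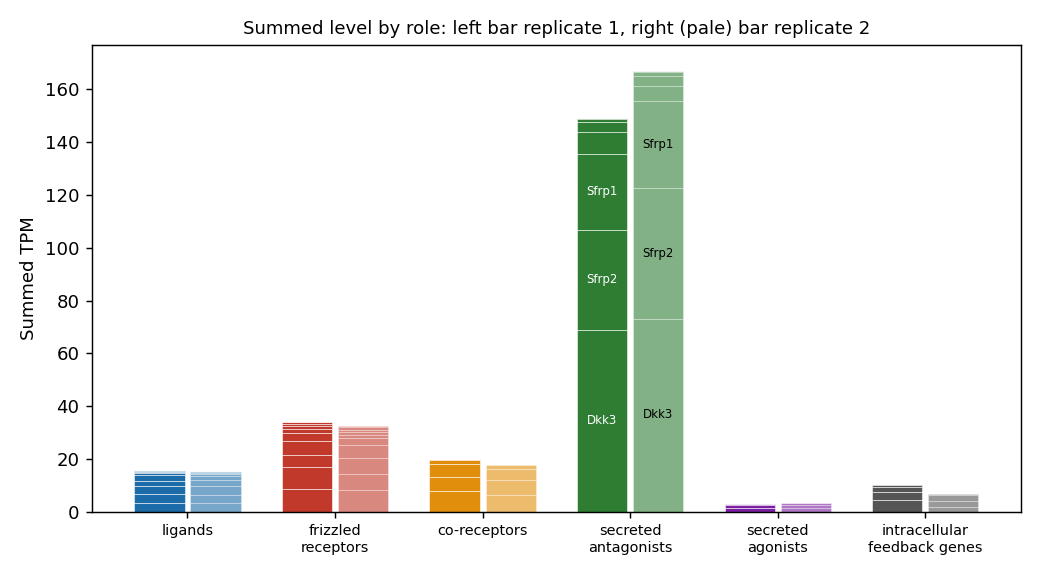
Summed TPM of the members in each role, stacked by gene, with replicate 1 as the left and replicate 2 as the right, paler bar. The bars of the secreted antagonists, 149 and 167 TPM, are the tallest and consist mainly of Dkk3, Sfrp2 and Sfrp1.

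Of the 19 ligands, 5 were detected, and the first 3 in order were ligands known for signalling without beta-catenin. The 19 ligands were not sorted by branch, so the branches were not compared. Wnt11, which acts in the outflow tract, stood at 3.32 and 3.26 TPM (210 and 211 counts). Wnt5b was at 3.29 and 3.20 TPM and its relative Wnt5a, a ligand of Ror2, at 3.01 and 3.26 TPM. The order of these 3 genes was not resolved: Wnt5a lay below Wnt5b in replicate 1 and above it in replicate 2. Wnt9a followed at 2.15 and 2.16 TPM, and Wnt2, a ligand of the early heart field and of lung mesenchyme, at 1.99 and 1.60 TPM. Neighbours in order of level were called separated where both pups gave the same sign, the mean log2 ratio exceeded the difference between the pups, and the deposited credibility intervals did not overlap in either pup. On this rule Wnt5a exceeded Wnt9a by 1.45-fold, while Wnt9a and Wnt2 were not separated.

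The 14 other ligands were below 1 TPM in both pups, the highest being Wnt16 at 0.78 and 0.65 TPM. Wnt9b, known from the endocardium of the valves, read 0.44 and 0.32 TPM (75 and 53 counts), and its paralog Wnt9a was 5.74-fold higher. Wnt2b, Wnt4, Wnt7b and Wnt6 lay between 0.06 and 0.29 TPM. The 8 ligands under 0.1 TPM on average had at most 3 counts per pup, and they included Wnt1, Wnt3a and Wnt8a.

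Some ligand genes lie next to each other in ancient gene clusters, and 4 such pairs were compared. Wnt9a and Wnt3a lie 16.2 kb apart on chromosome 11 on opposite strands, where Wnt9a had 264 and 262 counts and Wnt3a 2 and 0. Wnt9b and Wnt3, 24.3 kb apart on the same chromosome, had 75 and 53 counts against 1 in each pup. In both of these pairs the Wnt9 member was the one with the reads. Wnt10b and Wnt1, 11.7 kb apart on chromosome 15, had 3 and 1 counts against 0. Wnt6 and Wnt10a, 6.19 kb apart on chromosome 1, had 6 and 9 counts against 0. Wnt9a was the only detected gene in the 4 pairs.

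Of the 10 frizzled receptors, 7 were detected, led by Fzd4, Fzd6, Fzd1 and Fzd2. Fzd4, which also binds Norrin in blood vessels, read 8.63 and 8.26 TPM (1181 and 1118 counts). Fzd6, a receptor of planar polarity, read 8.21 TPM in replicate 1 and 5.94 TPM in replicate 2. Fzd1 went the other way, with 4.67 and 6.04 TPM, and its close relative Fzd2 read 5.29 and 4.96 TPM. No neighbours among these 4 were separated: the pups put Fzd6 and Fzd1, and Fzd1 and Fzd2, in opposite order, and Fzd4 exceeded Fzd6 in both pups by less on average than the pups differed. Pairs further apart, chosen after their values were seen, were separated: Fzd4 exceeded Fzd1 by 1.59-fold and Fzd2 by 1.65-fold, and Fzd6 exceeded Fzd2 by 1.36-fold. Below them Fzd3 stood at 2.86 and 2.57 TPM, 1.89-fold under Fzd2, and Fzd9 at 1.86 and 1.39 TPM, 1.69-fold under Fzd3, both separated. Fzd5 was near the threshold at 1.07 and 1.01 TPM.

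The threshold ran through a group of receptors with similar levels. Fzd7, a relative of Fzd1 and Fzd2, lay just below it at 0.79 and 0.99 TPM and is not counted as detected. Fzd8, a relative of Fzd5, lay on both sides of it with 0.61 and 1.04 TPM (75 and 128 counts). Neither Fzd5 and Fzd7 nor Fzd7 and Fzd8 were separated. Fzd10 was low in both hearts, with 4 and 17 counts, or 0.03 and 0.14 TPM.

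All 4 co-receptors were detected. Ror1, a tyrosine-kinase-like receptor of Wnt5a, read 7.81 and 6.47 TPM and Ror2 5.0 and 4.41 TPM, so Ror1 was 1.51-fold higher, with the pups and their intervals separated. Lrp6 read 5.25 and 5.42 TPM and Lrp5 1.40 and 1.38 TPM, a 3.84-fold difference, also separated. Lrp6 was thus the main co-receptor of the beta-catenin branch by RNA level. It was not separated from Ror1 above it or Ror2 below it.

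Of the 10 secreted antagonists, 6 were detected, and every neighbouring pair among these 6 was separated. Dkk3 (chr7:112116017-112159057, minus strand, mm10) read 69.0 and 73.1 TPM (8577 and 8992 counts), which placed it in the top 7.11% of protein coding genes. Sfrp2 (chr3:83766321-83774316, plus strand) read 37.7 and 49.4 TPM, and Sfrp1 (chr8:23411502-23449632, plus strand) 28.9 and 33.1 TPM. Both are secreted proteins whose cysteine-rich domain resembles that of the frizzled receptors. Dkk3 was 1.65-fold above Sfrp2, and Sfrp2 1.39-fold above Sfrp1.

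The other antagonists were lower. Wif1, which binds WNT proteins directly, read 8.19 and 5.80 TPM and lay 4.49-fold under Sfrp1. Frzb, first known from cartilage, read 3.81 and 3.77 TPM, and Sfrp5 1.31 and 1.37 TPM. Within the family closest to Sfrp1, Sfrp1 and Sfrp2 exceeded Sfrp5 by 23.1-fold and 32.2-fold. Dkk2, which binds the LRP co-receptors, was at 0.31 and 0.36 TPM (42 and 49 counts), 213-fold below Dkk3. Dkk1 had 2 and 0 counts and Dkk4 1 in each pup, and Sfrp4 had 4 and 7. The Dkk proteins known to block Lrp5 and Lrp6 were therefore all under 1 TPM, while Dkk3 was the highest member.

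Of the R-spondins, Rspo1 read 1.42 and 1.31 TPM and Rspo3 1.12 and 1.42 TPM. Rspo1 was the higher in replicate 1 and Rspo3 in replicate 2, so they were not separated. Rspo2 was lower, at 0.26 and 0.55 TPM (32 and 67 counts), and Rspo4 had no count.

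Among the feedback genes, Axin1, the constant scaffold of the complex that degrades beta-catenin, read 3.19 and 2.49 TPM. Its inducible paralog Axin2 read 0.68 and 0.59 TPM (47 and 50 counts) and lay 4.45-fold below, separated from it. Of the dishevelled-binding proteins, Nkd1 stood at 2.04 and 2.08 TPM, whereas Nkd2 (chr13:73818534-73847631, minus strand) read 4.31 TPM in replicate 1 and 1.63 TPM in replicate 2. Nkd2 was therefore above Nkd1 and Axin1 in the first heart and below both in the second.

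The pups were then compared member by member, as the log2 ratio of replicate 2 over replicate 1 of counts scaled by the TMM method, with a prior count of 2. Calls needed a mean of 50 counts and a difference of at least 2-fold, and 30 members reached that count. Nkd2 was the only member called: 578 counts in replicate 1 and 217 in replicate 2 gave a log2 ratio of -1.38, a level 2.59-fold higher in replicate 1, with an exact 95% counting interval of -1.62 to -1.16. Among all 13463 genes with that count, 0.163% were called lower and 0.334% higher in replicate 2. No member was called higher, the nearest being Fzd8, with a log2 ratio of 0.79 (interval 0.38 to 1.23). Counting intervals, taken from the exact binomial interval of the counts, cover counting error only and not the spread between animals.

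Of the 30 members, 13 had counting intervals that left out equal levels, 6 above and 7 below, where 39% of all genes did. The count was 12 with DESeq2 size factors, where Fzd7 dropped out, and 15 at a minimum mean count of 20, which added Rspo2 and Wnt7b. Those higher in replicate 2 were Fzd8, Sfrp2 (log2 ratio 0.40), Fzd1 (0.38), Fzd7 (0.34), Sfrp1 (0.21) and Dkk3 (0.10). Lower in replicate 2 were Nkd2, Wif1 (-0.51), Fzd6 (-0.45), Fzd9 (-0.40), Axin1 (-0.34), Ror1 (-0.26) and Ror2 (-0.18). By role they were 5 of 9 frizzled receptors, 4 of 6 antagonists, 2 of 4 co-receptors and 2 of 3 feedback genes. None of the 6 ligands with enough counts was among them, and these ran from -0.46 for Wnt9b (interval -1.01 to 0.06) to 0.04 for Wnt11. Those ligands had at most 575 counts in a pup, against 8992 for Dkk3 in replicate 2, and counting intervals widen as counts fall. The roles were not matched for counts. The median log2 ratio was -0.01 over the members and -0.00 over all genes, and the median absolute value was 0.16 against 0.10. Within 1.2-fold lay 19 of the 30 members (63.3%) and 84.8% of all genes. The members' mean counts were not matched to those of all genes in these shares.

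**Figure D3:**
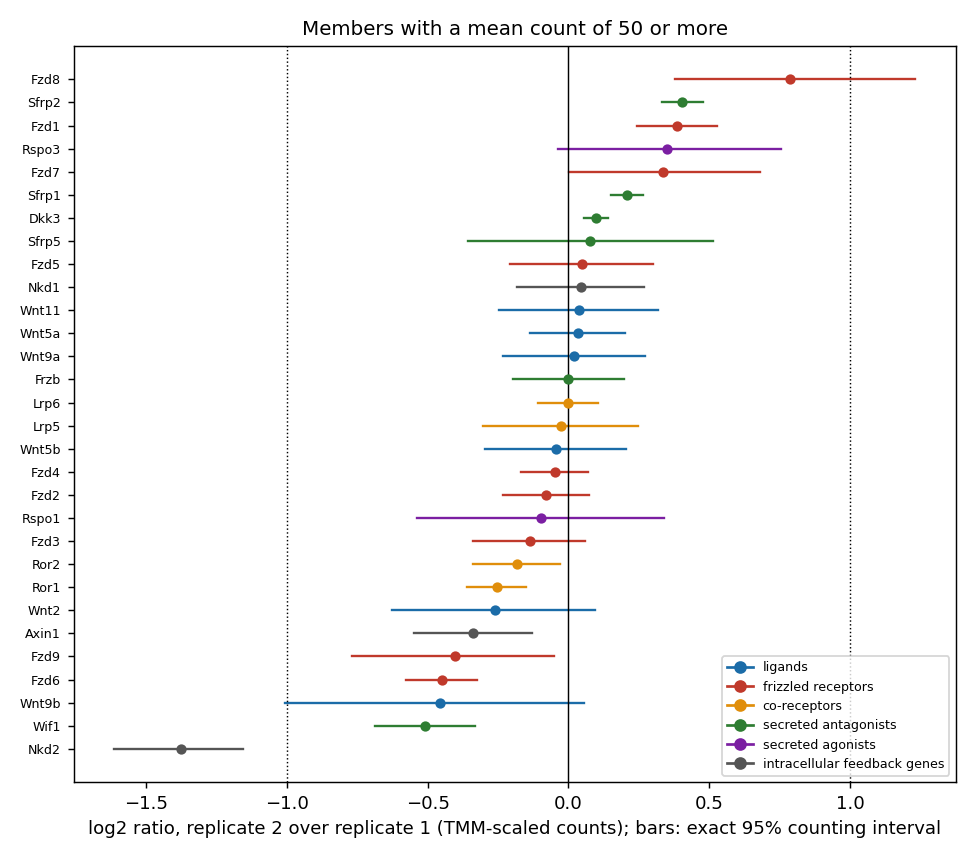
Log2 ratio of replicate 2 over replicate 1 for the 30 members with at least 50 counts on average, coloured by role, with exact 95% counting intervals as bars and dotted lines at 2-fold. Nkd2 at -1.38 is the only point beyond a dotted line.

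Below the count minimum, 3 members had ratios above 2-fold on few reads. Rspo2, just under it with a mean of 49.5 counts, had a log2 ratio of 1.05. Wnt7b, a ligand of airway epithelium and far below the minimum, had 8 and 32 counts (log2 ratio 1.79), and Fzd10, with 4 and 17 counts, had 1.69. All of them were higher in replicate 2, the heart with the higher Scgb3a2 and Scgb1a1, markers of airway epithelium, and the lower Sftpc, a marker of alveolar epithelium. The part of such tissue in these differences, and in that of Nkd2, was not tested. Erythroid markers were also lower in replicate 2, by a median log2 ratio of -0.70, whereas the medians of fibroblast (0.06), epicardial (0.13), endothelial (-0.10) and cardiomyocyte (-0.16) markers were closer to 0.

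Transcript tables gave the share of each gene's TPM held by each form. TPM is divided by length, so these shares are not shares of reads. Of the 27 detected members 9 had only 1 annotated transcript, and of the other 18 the leading transcript was the same in both pups for 17. In 13 its credibility interval lay clear of that of the next transcript in both pups, and all 18 leading transcripts were protein coding. Sfrp2-201 held 99.1% and 98.97% of the TPM of Sfrp2. All reads of Nkd1 were assigned to the transcript that starts at chromosome 8 position 88521354, and none to the one starting at 88527653, near which its RefSeq window lies. The leading form of Nkd2 held 75.8% and 77.4% of its TPM, so the same form led in both hearts.

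The 5 members whose leading form did not stand clear of the next were the 5 detected ligands, which had between 119 and 575 counts per pup. For Wnt11 the downstream start, whose window is printed above with a single GC box, held 69.8% and 66.1% of the gene's TPM, and the upstream start, with TATAAA and CTTTGA, held 30.2% and 33.9%. The leading form, Wnt11-205, took 51.0% and 53.9%, but its interval overlapped that of the next, Wnt11-202, with 28.6% and 30.9%. Wnt11-202 is an annotated nonsense-mediated decay transcript of the upstream start. A further annotated decay transcript, Wnt11-204, held 18.8% and 12.2%, within the share of the downstream start. The gene level of Wnt11 includes both decay forms, and Wnt11-205 alone stood at 1.69 and 1.76 TPM. The TPM of Wnt5a was divided between the start at chromosome 14 position 28504750, with 44.8% and 40.4%, and a group of starts at 28511390 to 28511451, with 54.3% and 56.5%. By expected counts the order was the reverse, with 356 and 343 counts at the former and 218 and 231 at the group. For Wnt5b the far start had 71.6% and 58.5%, the middle start 15.1% and 41.5%, and the near start 13.3% and 0%. The leading transcript was Wnt5b-203 in replicate 1 and Wnt5b-202 in replicate 2, on 274 and 260 counts in all. Their intervals overlapped in both pups, so no change of start was resolved. For Wnt2 the intervals of both forms overlapped in both pups, and for Wnt9a they overlapped in replicate 2 but not in replicate 1. For Axin2, not detected at 1 TPM, the annotated non-coding transcript Axin2-203 had the largest share of the TPM, with 40.6% and 50.9%. Its interval overlapped that of the next, a protein coding transcript, in both pups, so no leading form was resolved. By expected counts Axin2-203 held 43.9% and 44.2% and the protein coding Axin2-201 held 40.4% and 48.9%.

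**Figure D4:**
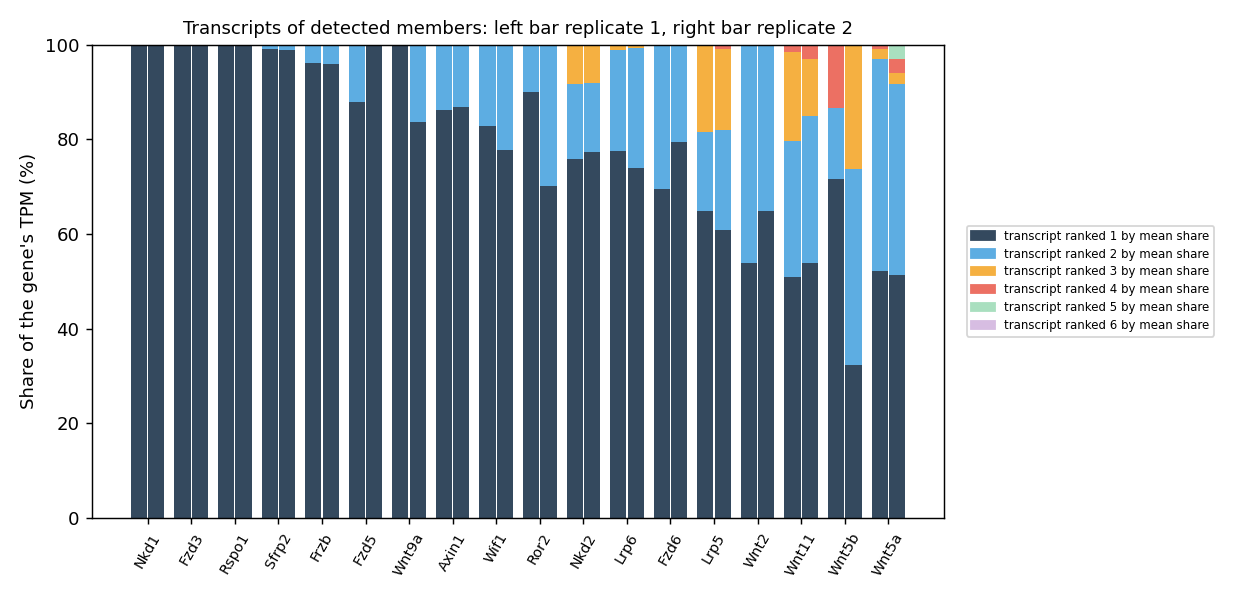
Share of each gene's TPM by transcript, in percent, for the 18 detected members with several annotated transcripts, with replicate 1 as the left and replicate 2 as the right bar and colours giving the rank by mean share. Genes at the left, such as Nkd1, Fzd3 and Rspo1, rest on 1 transcript, and Wnt5b is the gene whose leading transcript differed between the pups.

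Exons of 8 members overlap a gene on the opposite strand, 6 of them detected members: Fzd5, Fzd6, Rspo3, Sfrp2, Wnt11 and Wnt5a. The sources used here do not give whether counting used strand, and the strands cannot be told apart at these places. The overlapping genes with values had at most 16 counts. No member had reads that could belong to a near-identical copy to a visible extent, the largest posterior SD being 0.73% of the count.

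Of the other genes of the pathway, taken from lists by function, 60 of 73 were detected, where 54.5% of all protein coding genes were. The counts of the single lists below stand beside the same 54.5%. None of the 67 with enough counts was called between the pups, where 0.163% of all genes were called lower and 0.334% higher in replicate 2. The median log2 ratio of these 67 was -0.03. Of 8 genes for ligand secretion and removal 7 were detected. The proteoglycan Gpc3 read 107 and 111 TPM, Wls, which carries WNT proteins to the membrane, 65.3 and 60.8 TPM, and the sulfatase Sulf2 50.4 and 47.9 TPM. Each of these levels exceeded the sum of all 19 ligands. The palmitoyl transferase Porcn was low but detected, and the deacylase Notum had 3 and 9 counts.

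Of 15 receptor partners and turnover genes 10 were detected, led by Tmem88, an inhibitor that binds dishevelled and is known from heart development, at 47.6 and 45.2 TPM. Kremen1, a receptor of Dkk1, followed at 21.6 and 18.4 TPM and Ptk7 at 13.0 and 12.7 TPM. Of the R-spondin receptors Lgr4 was at 8.31 and 7.75 TPM, Lgr6 at 2.90 and 3.39 TPM and Lgr5 at 0.06 and 0.03 TPM. In the destruction complex and dishevelled list 14 of 15 genes were detected, and Csnk1a1 (167 and 146 TPM), Ctnnb1, which encodes beta-catenin (132 and 123 TPM), and Csnk1e (45.5 and 40.9 TPM) were highest. Of 15 nuclear partners 13 were detected: the corepressor Ctbp1 read 104 and 97.3 TPM, the beta-catenin inhibitor Ctnnbip1 40.2 and 34.5 TPM and the factor Tcf7l2 28.3 and 30.9 TPM. Of the other DNA-binding partners of the TCF/LEF family, Tcf7l1 was detected at 7.01 and 6.81 TPM. Lef1 (0.72 and 0.91 TPM) and Tcf7 (0.82 and 0.66 TPM) were both under 1 TPM.

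In the planar polarity list 11 of 14 genes were detected, with the GTPase Rhoa at 252 and 246 TPM, Prickle1 at 16.0 and 17.6 TPM and Daam1 at 8.35 and 7.94 TPM. Of 12 textbook target genes of beta-catenin 6 were detected, led by Ccnd1 (46.0 and 43.8 TPM), Myc (11.6 and 13.1 TPM) and Cd44 (7.08 and 5.59 TPM). The others detected were Znrf3, a ligase that removes frizzled receptors, at 4.88 and 4.31 TPM, Bmp4 at 3.86 and 3.69 TPM and Tnfrsf19 at 3.40 and 4.07 TPM. The 6 under 1 TPM in both hearts were Lef1, Tcf7, Rnf43, Sp5, Notum and Lgr5. The induced feedback genes Nkd1 and Axin2 were likewise divided, with Nkd1 detected and Axin2 not.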

How the data were processed

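Total RNA from the hearts of 2 pups was sequenced. Per the labels' protocols the extraction was by Ambion mirVana, each library started from 10 ng, spike-ins were added and a SMARTer Ultra Low manual is listed. The authors deposited, without pooling, a gene table and a transcript table per library, quantified on mm10 with GENCODE M4 per the deposited read-me. The sources used here do not give the aligner or the versions of tools. The deposited expected counts are estimates of the reads from each feature, in which a read that fits several features is divided among them. Deposited TPM values are expected counts divided by effective length (length minus 99 bases) and scaled to a fixed total, and deposited FPKM values are scaled by length and total reads. The authors also deposited credibility bounds and posterior SD (a signal in the unit of the estimate, with an interval width not stated) and each transcript's percent of its gene.

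Symbols came from GENCODE M21 of the same build (42462 of 43346 genes matched). Members, gene lists and comparisons were chosen with earlier results of these data known. Named members were all those detected in both or in 1 of the pups, those past the 2-fold rule and the neighbouring ligand pairs, with the 3 most abundant genes of each pathway list. Further names (Wnt16, Wnt9b, Wnt2b, Wnt4, Wnt7b, Fzd7, Fzd10, Dkk1, Dkk2, Dkk4, Sfrp4, Rspo2, Axin2, Porcn, Notum, Lgr4, Lgr5, Lgr6, Znrf3, Bmp4, Tnfrsf19, Lef1, Tcf7, Tcf7l1, Sp5 and Rnf43) were chosen after their values were seen. The rounding of expected counts to whole numbers, TMM scaling (edgeR 4.0.16, R 4.3.3) with a prior count of 2, and a minimum mean count of 50 defined the pup ratio. Ratios of each scaled pair of counts were given exact binomial (Clopper-Pearson) 95% intervals. The rule was tested on simulated counts. Intervals used scipy 1.17.1 and tables pandas 2.3.3 under Python 3.11.15. DESeq2 1.42.0 size factors, unscaled counts, TPM ratios, FPKM, posterior means, other thresholds, prior counts and minimums, and each replicate left out were the alternatives.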

Additional observations from a re-analysis of the deposited data

How the results depend on the processing

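The number of members detected was 27 and ran from 19 at 2 TPM to 36 by a minimum of 20 expected counts, with 27 to 28 when either replicate was left out. By expected counts 9 ligands were detected instead of 5, and the R-spondins detected fell from 2 to 1 by FPKM and 0 at 2 TPM. Nkd2 was the only member called lower under all alternatives run, while members called higher rose from 0 to 2 at a minimum mean count of 20 and to 3 with no minimum. With posterior mean TPM the ligands' share of the members was 7.15% (6.57% in the deposited TPM), the log2 ratio of antagonists to ligands 3.20 (3.34) and of frizzled receptors to ligands 0.96 (1.09). In CPM, which favour long genes, the shares were 5.56% for ligands, 16.1% for frizzled receptors, 13.1% for co-receptors, 60.5% for antagonists and 0.838% for R-spondins, and frizzled receptors to ligands gave 1.54. On that scale Wnt11 to Wnt5b turned to -0.34 and Rspo1 to Rspo3 to -0.29. Leaving out a replicate gave log2 ratios of 0.072 to 0.48 for Fzd4 to Fzd6, -0.12 to 0.34 for Rspo1 to Rspo3, -0.61 to 0.43 for Nkd2 to Axin1 and 0.26 to 0.57 for Ror1 to Lrp6, with 1 pup and no replicate check. Over 28 members and 6 scaling or prior settings, all 168 log2 ratios stayed within the counting interval of the reported value. Of these ratios 5, in 4 members, changed sign. The settings reuse the same reads and the largest shift was 0.12, so this is no independent check. Fzd7 and Wnt9b also had enough counts but were not among the 28. No paired analysis was possible because there was 1 group. Counting error limits the 21 members with a mean count under 50, among them 13 of the ligands.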
